A study of Rattus norvegicus with 12 samples.

Results

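Propargylglycine (PPG) was given to rats that also received cigarette smoke and lipopolysaccharide (LPS, a bacterial endotoxin instilled into the trachea), and lung RNA of 3 such samples (CS+LPS+PPG) was compared with that of 3 samples from rats given smoke and LPS without PPG (CS+LPS). These 6 of the 12 arrays of the series were chosen by their treatment label, with no measured value used. The other 6 arrays were 3 of control rats, kept on the same schedule with air or saline in place of the exposures, and 3 of rats given smoke, LPS and NaHS, a salt that releases hydrogen sulfide (H2S). All rats were male and 8 to 12 weeks old, all exposed groups shared smoke and LPS, and PPG or NaHS was given before the smoke. RNA came from the left upper lobe, so all cell types of the lung, and tissue left attached to it, were measured together. Within a group of this kind, fewer cells of a type and less RNA per cell cannot be told apart.

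H2S is a gas that cells make from cysteine and homocysteine with the enzymes CTH and CBS, and from a product of cysteine with MPST. PPG inactivates the CTH protein, so the comparison asks which transcripts differ when this source of H2S is blocked in the smoke and LPS model. In the lung H2S is known for relaxing smooth muscle, for antioxidant effects and for effects on inflammation. Smoke and LPS bring neutrophils and macrophages into the airways, and repeated injury acts on the elastic fibres and collagens that give the alveolar wall its recoil.

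Each array gave a background-subtracted signal per probe, reported here as a log2 value after each array had been scaled to its 75th percentile. Before scaling, this percentile was 2351 to 3261.5 in the CS+LPS group and 2167.1 to 2357.3 in the CS+LPS+PPG group. Of 30367 probes for transcripts, 21239 (69.9%) were tested, because every array of 1 or more groups read them well above background. Sftpc, a surfactant protein made by alveolar type 2 cells, had a log2 signal of 18.19 to 18.63 on the 6 arrays. The CS+LPS+PPG arrays lay on slide 1 with the NaHS arrays and control replicates 1 and 2, and the CS+LPS arrays lay on slide 2 with control replicate 3. Slide and PPG therefore cannot be told apart in this comparison, except through the single control array on slide 2. That array carried much fat and heart RNA (Ucp1, the uncoupling protein of brown fat, at 13.24, against 5.11 and 4.55 on the other control arrays). For many of the genes named here, all the largest rises and falls among them, the difference between CS+LPS+PPG and CS+LPS+NaHS, which lay on the same slide, is given beside the main one. Both differences contain the same 3 CS+LPS+PPG arrays.

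Differential expression relative to the CS+LPS group (DE) needed a 2-fold difference and, in limma, an unadjusted p under 0.05. By this rule 435 probes (2.05% of those tested) were called, of which 378 (1.78%) rose with PPG and 57 (0.268%) fell. In all, 2232 probes (10.5%) had an unadjusted p under 0.05. An adjusted p under 0.05 was reached by 111 (0.523%), with 106 higher (0.499%) and 5 lower (0.0235%), and 86 of the higher and 1 of the lower ones were also called DE. A fit with slide as a block, which rests on the single control array of slide 2, called 2979 (14.0%) higher and 1141 (5.37%) lower. The median difference over all tested probes was 0.02 on the log2 scale, and 52.4% of the probes lay above 0. The probes called higher were dim, with a median log2 signal of 6.07 against 9.35 for all probes tested, and 214 of the 378 were well above background on all 6 arrays. Among the 57 called lower, the median signal was 7.12 and 38 were well above background on all 6 arrays. Within slide 1, no probe reached an adjusted p under 0.05 between CS+LPS+PPG and CS+LPS+NaHS in limma, and 1857 (8.74%) had an unadjusted p under 0.05. There 68 probes (0.320%) rose and 43 (0.202%) fell by the fold rule.

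**Figure D1:**
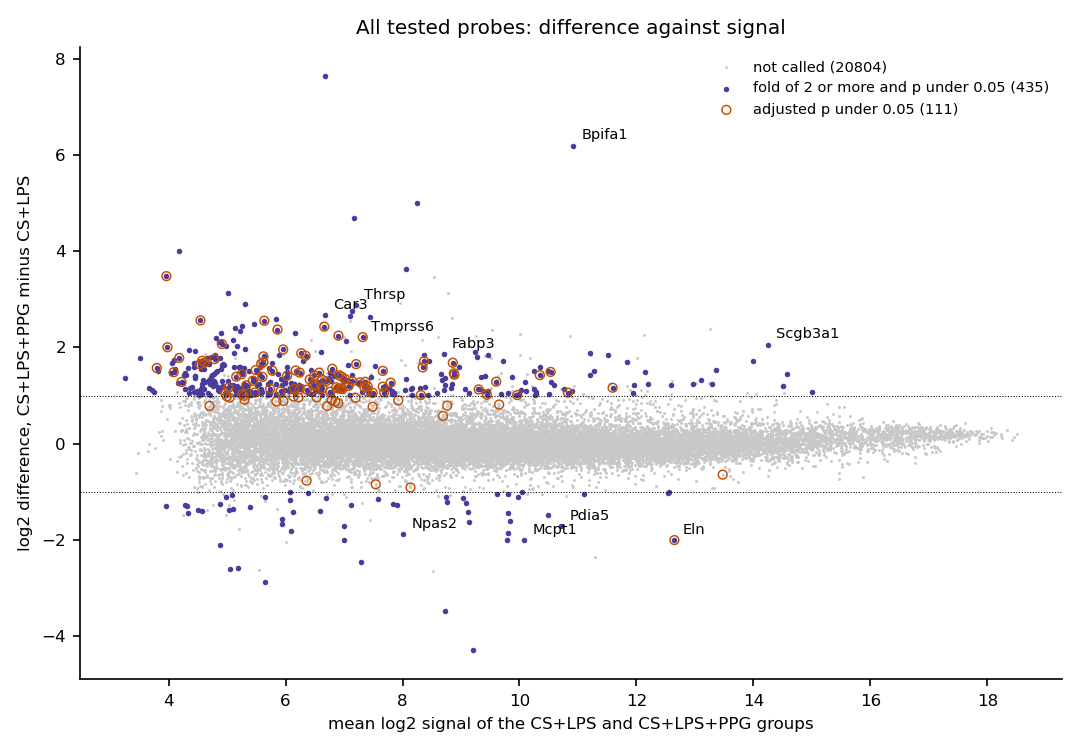
Log2 difference of CS+LPS+PPG minus CS+LPS (y axis) against the mean log2 signal of the 2 groups (x axis) for the 21239 tested probes. Dark points are the 435 called DE, open circles the 111 with an adjusted p under 0.05, and dotted lines a fold of 2. Most called probes lie above 0 and at low signal, and Eln is the only probe that was both called lower and past the adjusted threshold.

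Elastic fibre genes lay lower with PPG, and 3 of them passed the call. These fibres hold a core of elastin (Eln), laid on a scaffold of fibrillin microfibrils (Fbn1, Fbn2) with fibulins, EMILIN and LTBP proteins, and the lysyl oxidases (Lox, Loxl1) cross-link the elastin. Of 21 genes of this pathway looked up, 19 had a tested probe, and 18 of the 19 lay below 0. Eln, Lox and Loxl1 were called lower, none was called higher and 16 were not called. Of all tested probes 0.268% were called lower, 1.78% were called higher and 52.4% lay above 0. The median difference of the list was -0.36, against 0.02 for all probes tested. The groups did not overlap for 8 of the 19, all lower, where 8.41% of all tested probes did so in that direction.

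Eln fell most. Its log2 signal was 12.79, 14.22 and 13.94 in the CS+LPS samples and 11.26, 11.99 and 11.69 with PPG. All 3 values with PPG lay below every value of the other 9 arrays, which started at 12.79. The difference was -2.00 (SE 0.36, n = 3 a group, adjusted p = 0.0383), a 4.01-fold lower signal, and it was the only DE call of a fall that also passed the adjusted threshold. The 2-fold call held under all 24 alternatives that gave a value, but the adjusted p was over 0.05 under 13 of them, and reached 0.39 with the methods' t-test. These 13 included leaving out any 1 of CS+LPS replicates 2 and 3, the NaHS arrays and the arrays with PPG. A dimmer probe of Eln differed by -0.78 (SE 0.30, adjusted p = 0.392). Against CS+LPS+NaHS on the same slide Eln differed by -2.47 (SE 0.36, adjusted p = 0.563), and in the fit with slide as a block by -2.14. The probe lies on chromosome 12 at 23076983 to 23077042 (plus strand) in the positions the authors list, which name no genome build.

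Lox was 10.03, 10.33 and 10.05 in CS+LPS and 8.997, 9.32 and 8.93 with PPG, without overlap. The difference was -1.05 (SE 0.32, adjusted p = 0.25), and against CS+LPS+NaHS it was -1.65. Loxl1 was 11.34, 11.50 and 12.06 in CS+LPS and 10.65, 11.002 and 10.10 with PPG (difference -1.05, SE 0.30, adjusted p = 0.219; -0.86 against NaHS). For both cross-linking enzymes every sample with PPG lay below every CS+LPS sample. The Lox call was lost without CS+LPS replicate 2 (-0.96) or CS+LPS+PPG replicate 3 (-0.98), and the Loxl1 call without CS+LPS replicate 3 (-0.84) or CS+LPS+PPG replicate 3 (-0.81), as the fold dropped under 2.

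The scaffold genes differed by less than 2-fold. Fbn1, the main fibrillin of adult tissue, differed by -0.72 (unadjusted p = 0.00133; -0.53 against NaHS). Emilin1, which lies between elastin and the microfibrils, differed by -0.70, and the latent TGF-beta binding proteins Ltbp2 and Ltbp1 by -0.67 and -0.44. In each of these 4 the groups did not overlap. Fbln5, which brings elastin to the microfibrils, differed by -0.54, also without overlap. Mfap5 was the only member above 0 (0.08), and Efemp1, Loxl2 and Fbln1 lay between -0.08 and -0.02. The mean over the 19 members was 10.40, 10.41 and 10.28 on the arrays with PPG, and 10.91, 10.701 and 10.94 on the CS+LPS arrays. On the NaHS arrays it was 10.92, 10.96 and 10.997, above each array with PPG.

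Among collagens and matrix enzymes the differences were smaller. Of 31 genes 24 were tested, 1 was called lower, against 0.268% of all tested probes, and none higher. The median was -0.26. The called gene was Mmp28, a matrix metalloproteinase of epithelium (-1.66, adjusted p = 0.319; -0.27 against NaHS), which was 6.64, 6.15 and 7.53 in CS+LPS and 5.52, 4.52 and 5.29 with PPG. It was well above background on only 1 array with PPG, and the call was lost without CS+LPS replicate 3 (-1.28) or CS+LPS+PPG replicate 2 (-1.37). Col4a1, a collagen of basement membranes, was 14.48, 14.39 and 14.88 in CS+LPS and 14.01, 13.88 and 13.87 with PPG. Its difference of -0.67 (SE 0.17) did not reach 2-fold, and against NaHS it was -0.82. Col5a1, which sets the width of collagen fibrils, differed by -0.68 and Col1a1, the main fibrillar collagen, by -0.67. Col1a2, the partner chain of Col1a1, differed by 0.05 and Fn1 (fibronectin) by 0.04. Smooth muscle markers, read for the cells that lay down much of the elastin of vessels and airways, had a median of -0.32 over 10 genes with none called, and endothelial markers a median of -0.01 over 10. The part of these cells in the matrix differences was not tested.

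**Figure D2:**
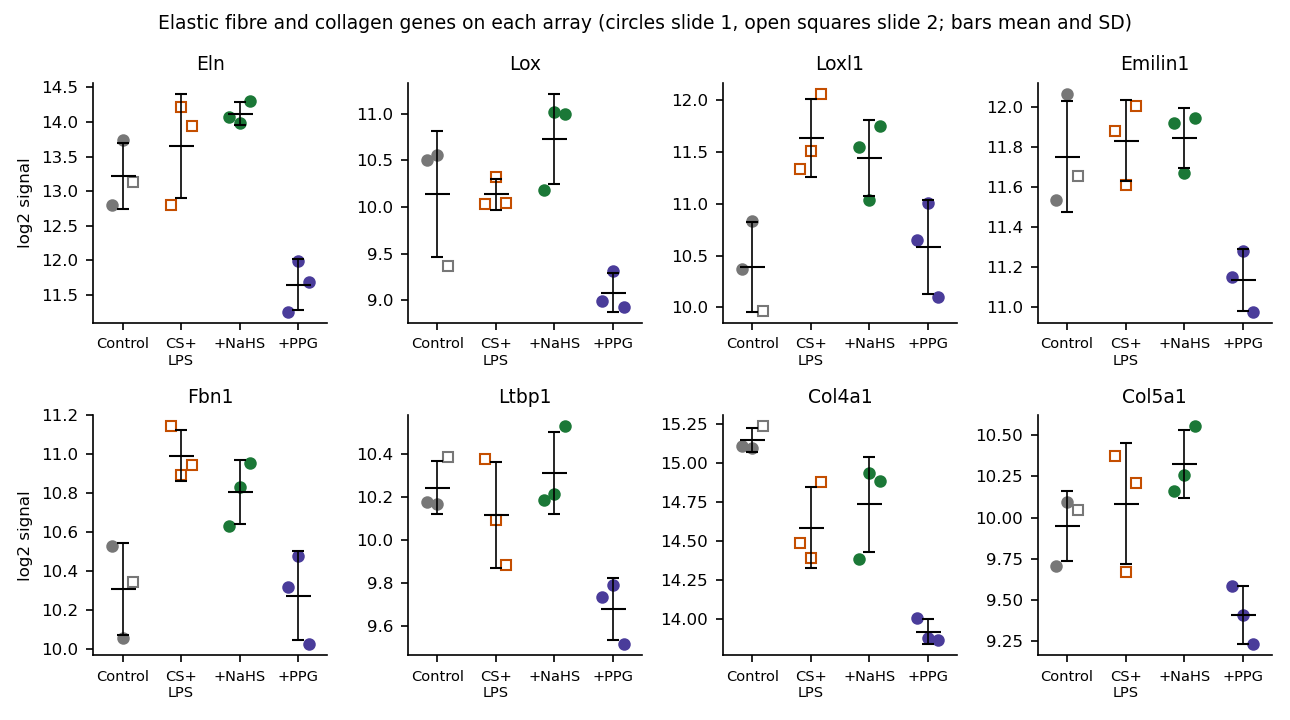
Log2 signal (y axis) of 6 elastic fibre genes and 2 collagens on each of the 12 arrays, by group (x axis). Circles are arrays of slide 1 and open squares of slide 2, and bars show the mean and SD of 3 arrays. The points with PPG are lowest for Eln, Lox, Emilin1, Ltbp1, Col4a1 and Col5a1, while for Fbn1 and Loxl1 they overlap with control.

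Interferon-stimulated genes lay higher with PPG, on 2 of the 3 arrays more than on the other one. Interferons released in infection switch on antiviral genes such as Isg15, the Ifit family, Mx1 and Oas1a, while Irf7 raises further interferon output. Of 24 genes looked up 23 were tested, and all 23 lay above 0, where 52.4% of all tested probes did. The list median was 0.61. Of the 23, 5 were called higher (Isg15, Ifit1, Ifit3, Irf7 and Usp18), against 1.78% of all tested probes. In this list none was called lower, against 0.268% of all, and 18 were not called. None reached an adjusted p under 0.05, and 10 had an unadjusted p under 0.05. The groups did not overlap for 5 of the 23, where 10.7% of all tested probes did so in that direction.

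The response element read by interferon-activated factors, taken as GAAA and again GAAA with any 2 bases between, was searched on both strands of the 300 bases around each gene start in RefSeq (assembly GRCr8). It was held by 11 of the 16 list members that had an entry (68.8%), and by 1312 of 33469 promoters in all (3.92%). The promoters of 2 called members are shown because these genes carry the call and hold the motif. Capitals mark the match, which lies on the strand opposite to the one printed, and a match is a description of the letters only.
Ifit3: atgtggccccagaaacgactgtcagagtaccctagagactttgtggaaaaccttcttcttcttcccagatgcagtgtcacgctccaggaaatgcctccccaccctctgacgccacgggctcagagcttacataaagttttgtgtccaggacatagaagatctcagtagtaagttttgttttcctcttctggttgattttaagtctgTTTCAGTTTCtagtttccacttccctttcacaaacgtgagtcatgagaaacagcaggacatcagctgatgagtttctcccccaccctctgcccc
Irf7: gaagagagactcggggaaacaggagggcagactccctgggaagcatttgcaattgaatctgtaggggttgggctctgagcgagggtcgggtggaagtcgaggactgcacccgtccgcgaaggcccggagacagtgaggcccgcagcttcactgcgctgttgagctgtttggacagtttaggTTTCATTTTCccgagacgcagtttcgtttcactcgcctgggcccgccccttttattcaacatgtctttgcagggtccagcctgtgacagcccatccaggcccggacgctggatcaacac
The Ifit3 window is chr1:241527076-241527375 on the plus strand, with the match starting at position -44 from the gene start, and the Irf7 window is chr1:205799974-205800273 on the minus strand, with the match starting at -69.

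Isg15, a ubiquitin-like protein that is joined to other proteins, was 11.70, 12.90 and 12.74 in CS+LPS and 13.99, 14.37 and 12.92 with PPG. Replicate 3 with PPG lay just above the highest CS+LPS sample, and the difference was 1.31 (SE 0.42, adjusted p = 0.278). Irf7 was 12.14, 12.55 and 13.33 in CS+LPS and 14.25, 14.78 and 12.72 with PPG (1.24, SE 0.46, adjusted p = 0.369), so that replicate 3 with PPG lay inside the CS+LPS range. Ifit3, which binds foreign RNA together with Ifit1, was 8.88, 10.24 and 9.39 against 11.06, 11.74 and 10.23 (1.51, SE 0.42, adjusted p = 0.201). Usp18, the protease that takes ISG15 off its targets, was 8.95, 10.02 and 9.40 against 10.83, 11.55 and 9.84 (1.28, adjusted p = 0.280). Replicate 3 was the lowest of the samples with PPG in both Ifit3 and Usp18.

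Ifit1 was well above background on only 1 CS+LPS array, with a difference of 3.13. The difference against CS+LPS+NaHS was 1.24 for Isg15, 1.06 for Irf7, 1.01 for Ifit3 and 0.80 for Usp18. Replicate 3 was the lowest of the samples with PPG for 20 of the 23 genes. Replicates 1 and 2 both exceeded every CS+LPS sample for 19 of the 23 genes, and replicate 3 for 6. The mean over the list was 11.79, 12.17 and 11.16 with PPG, 10.68, 11.16 and 11.10 in CS+LPS, 11.08, 10.80 and 11.25 with NaHS and 10.99, 11.07 and 10.82 in control. Without CS+LPS replicate 1 the calls of Isg15 (0.94) and Irf7 (0.97) were lost. The Irf7 call was also lost without CS+LPS replicate 2 (1.18) or without CS+LPS+PPG replicate 1 (1.07) or 2 (0.81), and the Usp18 call without CS+LPS+PPG replicate 2 (0.88). The guanylate-binding protein Gbp1 was one of the 12 largest rises, at 5.96, 6.15 and 5.80 in CS+LPS and 8.51, 8.03 and 7.74 with PPG (2.13, SE 0.62, adjusted p = 0.225; 1.65 against NaHS). On control replicate 3 it read 8.33, and on the other control arrays 5.45 and 5.36.

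The chemokines that interferon-gamma induces, and that draw T cells through CXCR3, were also higher, but most of all in another sample. Of 34 tested cytokines and chemokines 4 were called higher, against 1.78% of all tested probes. None was called lower, against 0.268% of all, and the median of the list was 0.02. Cxcl10 was 7.62, 8.35 and 8.04 in CS+LPS and 9.12, 8.81 and 10.05 with PPG, without overlap (1.32, SE 0.32, adjusted p = 0.130; 1.31 against NaHS). Cxcl9 (1.16), Cxcl11 (1.59) and Ccl12, a monocyte attractant (1.84), were the other 3, and differed from NaHS by 1.23, 1.52 and 1.81. Cxcl11 and Ccl12 were each not well above background on at least 1 of the 6 arrays compared. All 4 were highest with PPG on replicate 3, the sample that was lowest for most antiviral genes. Without that sample the Cxcl9 difference was 0.42, the Cxcl10 difference 0.96 and the Cxcl11 difference 0.89, and these 3 calls were lost. The Cxcl10 call was lost only because the fold dropped under 2 (unadjusted p = 0.00524 in limma). The Cxcl9 call was also lost without any 1 of 5 other arrays, and the Cxcl11 call without CS+LPS replicate 3 (1.46). The cytokines of the acute response to LPS showed values of -0.19 for Il1b, 0.43 for Tnf and -0.84 for Il1a, and none of them was called.

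**Figure D3:**
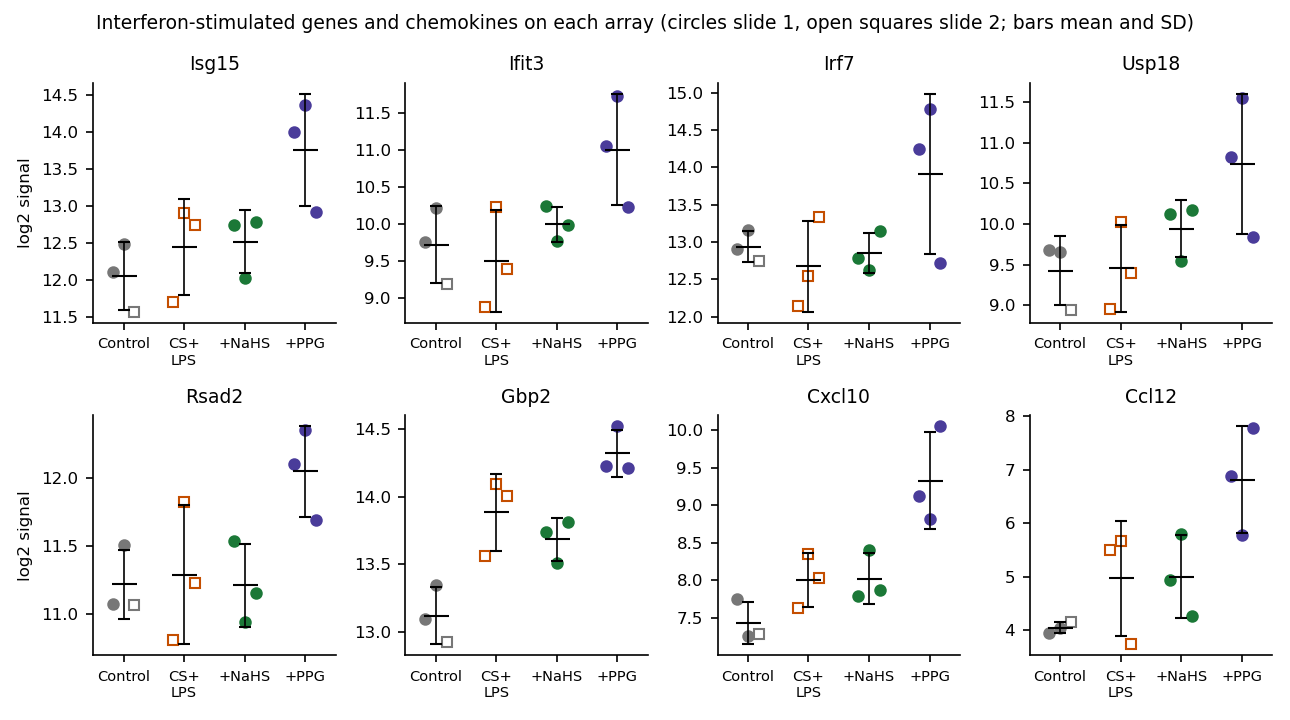
Log2 signal (y axis) of 6 interferon-stimulated genes and of the chemokines Cxcl10 and Ccl12 on each array, by group (x axis). Circles are arrays of slide 1, open squares of slide 2, and bars the mean and SD of 3 arrays. The rightmost point with PPG, replicate 3, is the lowest of that group in the first 6 panels and the highest in the last 2.

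MHC class I genes, which show peptides to CD8 T cells, had 9 calls in the largest list tested. Of 47 genes 39 were tested, 7 were called higher, 2 lower and 30 were not called. Over all tested probes 1.78% were called higher and 0.268% lower. The list median was 0.35, against 0.02 for all probes tested. The groups did not overlap, with PPG higher, for 17 of the 39, where 10.7% of all tested probes did so. The rat carries many near-identical RT1 class I genes, so that a probe may read several of them and the genes named are uncertain. RT1-CE16 was 14.22, 13.68 and 13.65 in CS+LPS, and 15.16, 15.73 and 15.005 with PPG (1.45, SE 0.40, adjusted p = 0.194). RT1-CE3 and RT1-CE15 (both 1.58), RT1-CE4 (1.23), RT1-CE11 (1.21) and RT1-CE14 (1.20) were the other RT1 probes called higher. RT1-CE3 was 9.85, 9.50 and 9.32 in CS+LPS and 10.76, 11.70 and 10.97 with PPG, and differed by 1.45 from NaHS. On control arrays 1 and 2, which share its slide, it read 10.86 and 11.29, so that the values with PPG overlapped with control. With slide as a block the RT1-CE3 difference was -0.090 and the median of the list -0.10.

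The remaining calls of that list came with wide spread inside a group. Tap2, which carries peptides into the endoplasmic reticulum, was 10.28, 13.12 and 10.82 in CS+LPS and 12.72, 13.14 and 12.80 with PPG, so CS+LPS replicate 2 read as high as the samples with PPG. Its difference was 1.48 (adjusted p = 0.401; 0.26 against NaHS), and the call was lost without CS+LPS replicate 1 or 3 or without CS+LPS+PPG replicate 2 or 3. RT1-CE10 was 9.51, 11.09 and 10.80 in CS+LPS and 9.91, 5.40 and 5.66 with PPG (-3.48, SE 1.37, adjusted p = 0.403). The first sample with PPG matched the CS+LPS level, and control replicate 2 was as low as the other samples with PPG (4.86). RT1-N1 was 9.87, 11.01 and 10.76 against 10.26, 9.51 and 8.84 (-1.01, adjusted p = 0.443). The calls of RT1-CE4, RT1-CE10 and RT1-N1 were each lost without CS+LPS replicate 2 or 3 or without CS+LPS+PPG replicate 2 or 3. The RT1-CE14 call was lost without CS+LPS+PPG replicate 2 (0.99). Subunits of the immunoproteasome, which cuts the peptides, differed by 0.88 for Psmb8 and 0.48 for Psmb9, and B2m, the light chain of class I, by 0.25. Of 11 MHC class II genes none was called, with a median of -0.18 and Cd74 at -0.24. A dimmer probe of the class II gene RT1-Bb, named here after its values were seen, was not well above background on any CS+LPS array. Its mean was at least 163.5-fold higher with PPG (adjusted p = 0.268), yet the groups overlapped. At least 1 array with PPG thus lay no higher than the highest CS+LPS array, and the fold does not hold for every sample. The brighter RT1-Bb probe differed by -0.43.

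**Figure D4:**
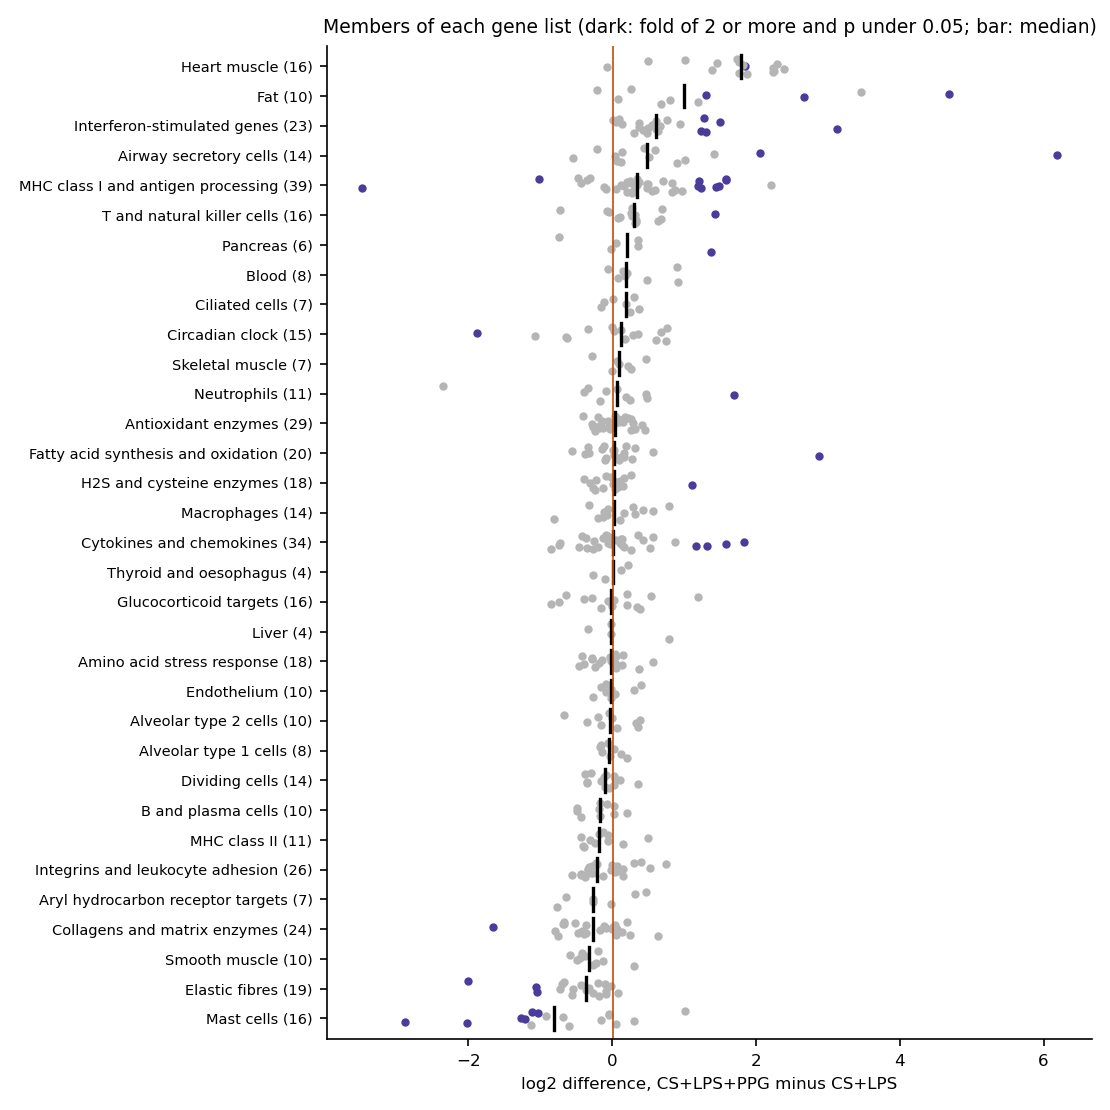
Log2 difference of CS+LPS+PPG minus CS+LPS (x axis) for each tested member of 33 gene lists (y axis, number tested in brackets). Dark points were called DE, black bars are list medians and the coloured line is the median of all tested probes (0.02). Heart, fat and interferon lists lie to the right, and mast cell and elastic fibre lists to the left.

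Transcripts of the enzymes that form or remove H2S gave a single call. Of 18 tested genes of H2S and cysteine handling 1 was called higher, against 1.78% of all tested probes. None was called lower, and the median of the list was 0.02. Cth, the target of PPG, was 7.96, 7.25 and 6.68 in CS+LPS and 6.49, 7.43 and 7.31 with PPG, and the ranges overlapped. The difference was -0.22 (95% interval -1.21 to 0.77, adjusted p = 0.897) and turned to 0.11 without CS+LPS replicate 1. With slide as a block it was -1.82 (adjusted p = 0.0473), past the threshold of a fall, and against NaHS on the same slide it was -0.19. PPG acts on the enzyme, so the transcript does not check whether it was blocked. Cbs differed by -0.01, Mpst by 0.16, and Sqor, which oxidizes H2S in mitochondria, by 0.26. Cdo1, which oxidizes cysteine and so competes for the same substrate, was the called gene, at 10.31, 9.67 and 8.44 in CS+LPS and 10.40, 10.40 and 10.96 with PPG (1.11, SE 0.46, adjusted p = 0.425). CS+LPS replicate 1 nearly reached the samples with PPG, and the call was lost without CS+LPS replicate 3 (0.60) or CS+LPS+PPG replicate 3 (0.93). Among 29 antioxidant enzymes none was called, and all lay between -0.40 and 0.45. None of 18 genes of the amino acid stress response was called either (median -0.01).

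Most mast cell genes lay lower with PPG, and for all 16 tested genes the highest CS+LPS value was that of replicate 1. Of the 16, 6 were called lower, against 0.268% of all probes tested, and none higher. The groups did not overlap for 6 of the 16, all lower, where 8.41% of all tested probes did so in that direction. The median was -0.80, -0.18 without CS+LPS replicate 1 and -1.26 without CS+LPS replicate 3. The mean over the list was 10.65, 9.39 and 8.80 in CS+LPS and 8.85, 8.75 and 9.05 with PPG, so CS+LPS replicate 3 lay inside the range with PPG. The chymase Mcpt1 was 12.86, 10.37 and 10.02 in CS+LPS and 9.07, 8.85 and 9.29 with PPG, and Fcer1a, the binding chain of the IgE receptor, was 10.01, 8.06 and 7.54 against 7.31, 7.06 and 7.44 (-1.27, SE 0.53, adjusted p = 0.443). Both genes were named among the 12 largest falls, a rule that required no overlap between the groups. The differences from NaHS were -1.15 for Mcpt1 and -0.52 for Fcer1a. The second probe of Fcer1a gave -1.23. Without CS+LPS replicate 1 the calls of Fcer1a (-0.53), Mcpt8l2 (-0.54), Mcpt9 (-0.54) and Mcpt10 (-0.52) were lost. These 4 calls were each also lost without 1 or more of the arrays with PPG, where the differences stayed between -1.35 and -0.98. Mcpt1l4, a protease related to Mcpt1, read 7.34-fold lower with PPG (adjusted p = 0.196), and 3.71-fold lower without CS+LPS replicate 1. It was not well above background on any array with PPG, so the size of this difference is uncertain. Cma1 (0.05), Kit (-0.05) and Hdc (-0.04), a protease, the growth factor receptor and the histamine-forming enzyme of mast cells, were not called. In all, 3 of the 16 genes lay above 0, and the highest, at 1.02, was not called either.

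Markers of tissues that adjoin the lung differed between the groups as well. Over all tested probes 1.78% were called higher and 52.4% lay above 0. Heart muscle genes had a median of 1.80 over 16 tested genes, with 15 above 0 and 1 called, and their mean was 10.89, 10.28 and 10.83 with PPG against 10.51, 8.62 and 7.89 in CS+LPS. Over all groups it ran from 6.16 in control replicates 1 and 2 to 11.23 in control replicate 3. The called gene was Fabp3, a fatty acid carrier of heart muscle (8.74, 7.77 and 6.83 against 9.58, 9.23 and 10.08). Myh6, the atrial myosin heavy chain, was 13.23, 10.37 and 9.39 in CS+LPS and 13.46, 12.74 and 13.56 with PPG. Fat genes had a median of 1.00 over 10, with 3 called higher, and their mean was 9.79, 8.98 and 9.52 with PPG against 8.22, 7.95 and 7.64. Adipoq, the hormone adiponectin of fat cells, was 7.12, 4.26 and 3.13 in CS+LPS and 10.64, 7.91 and 10.01 with PPG, and Cidec, a lipid droplet protein, was 6.38, 6.76 and 6.17 against 8.00, 7.35 and 7.89 (1.31, SE 0.27, adjusted p = 0.0784). The other called fat gene was Car3, a carbonic anhydrase (5.59, 4.97 and 5.45 against 8.96, 6.76 and 8.28). Thrsp, which promotes lipid synthesis, was 6.36, 5.41 and 5.53 against 9.68, 7.21 and 9.05. Fasn (-0.37) and Acly (-0.14), which make fatty acids, were not called. The calls of Fabp3 and Adipoq were each lost without CS+LPS replicate 2 or 3 or without CS+LPS+PPG replicate 1 or 3. The Car3 call was lost without CS+LPS replicate 2 or CS+LPS+PPG replicate 1 or 3. The Thrsp call was lost without any 1 of the CS+LPS arrays, the NaHS arrays and CS+LPS+PPG replicates 1 and 3. Against NaHS, Fabp3 differed by 1.64, Car3 by 2.93, Thrsp by 3.09 and Adipoq by 5.45. On at least 1 of the 6 arrays compared Adipoq was not well above background, so the size of its differences is uncertain. The part of attached heart and fat tissue in these differences was not tested.

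Airway secretory genes had a median of 0.48 over 14, with 2 called higher, against 1.78% of all tested probes, and none lower. Bpifa1, a secreted antimicrobial protein of the upper airways, was 9.48, 7.68 and 6.29 in CS+LPS and 15.01, 13.66 and 13.36 with PPG (6.19, SE 1.66, adjusted p = 0.178). It stood above the 6.50, 10.64 and 11.52 of the NaHS arrays by 4.45, and ran from 4.99 to 11.44 in control. Scgb3a1, a secretoglobin of airway cells, was 13.87, 13.21 and 12.56 against 15.48, 14.55 and 15.79 (2.06, SE 0.80, adjusted p = 0.396; 1.13 against NaHS). Its call was lost without CS+LPS replicate 2 or 3 or without CS+LPS+PPG replicate 1 or 3. Scgb1a1, the main secretoglobin of club cells, differed by 0.08, and Scgb3a2 by 0.04. Ciliated cell genes had a median of 0.19 over 7, and alveolar type 2 genes one of -0.02 over 10, with none called in either list.

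Genes of infiltrating cells gave few calls. Of 11 neutrophil genes 6 lay above 0 and 5 below, and the median was 0.07. In this list 1 gene was called higher, against 1.78% of all tested probes. This was Mpo, the peroxidase of neutrophil granules, at 4.54, 5.01 and 4.77 in CS+LPS and 6.79, 6.32 and 6.29 with PPG (1.70, SE 0.28, adjusted p = 0.0260). Against NaHS it differed by 0.16, and its adjusted p was over 0.05 under 10 of 24 alternatives. S100a8 (0.48) and S100a9 (0.47), which are abundant in neutrophils, were not called. Retnlg, a secreted protein of neutrophils, lay lowest of the list (-2.35, SE 1.22) and was not called, at 13.58, 9.87 and 13.92 in CS+LPS and 8.57, 10.02 and 11.74 with PPG. Ncr1, a receptor of natural killer cells, was the only call among 16 T and natural killer cell genes (1.43, adjusted p = 0.415), and was -0.55 with slide as a block. Its call was lost without any 1 of CS+LPS replicates 1 and 3 and CS+LPS+PPG replicates 2 and 3. None of 14 macrophage genes, 10 B and plasma cell genes, 8 blood genes or 14 genes of dividing cells was called. The pancreatic protease Ctrb1 was called higher with PPG (8.77, 8.67 and 8.50 against 9.003, 10.44 and 10.65; 1.38, adjusted p = 0.257) and was 11.32, 11.28 and 10.51 on the NaHS arrays.

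The probes with the smallest adjusted p stood above CS+LPS on the arrays with PPG and on those with NaHS. The 8 lowest values belonged to Tmprss6, Or4f14d, Rhoxf2b, Vom2r35, LOC685994, Vom1r54, Pgbd5 and Polr1a. With PPG these rose by 1.27 to 2.56 over CS+LPS (adjusted p from 0.000745 to 0.00168), and CS+LPS+NaHS lay 1.13 to 2.48 above CS+LPS. The difference between PPG and NaHS was -0.09 to 0.43. Tmprss6, a membrane protease of iron control, was 5.90, 6.27 and 6.47 in CS+LPS, 8.48, 8.43 and 8.36 with PPG, 8.50, 8.41 and 8.17 with NaHS and 7.93, 7.96 and 7.56 in control. For Tmprss6 the CS+LPS group was the one that stood apart, and the values with PPG were 0.26 to 0.61 above control over the 8 probes. LOC685994 was not well above background on any CS+LPS array and was at least 5.72-fold higher with PPG. Polr1a was well above background on 1 of them, and a brighter probe of Polr1a, the large subunit of RNA polymerase I, differed by -0.31. Over the 106 higher probes with an adjusted p under 0.05, the median difference was 0.12 against NaHS. By a count made after the values were seen, 10 of the 72 that had a symbol were olfactory or vomeronasal receptors (13.9%, against 0.869% of all tested probes with a symbol).

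Other large rises also differed little from NaHS. Spmap2, a protein of sperm, was 5.08, 6.17 and 5.09 in CS+LPS and 7.84, 7.45 and 8.35 with PPG (2.43, adjusted p = 0.0194; 0.42 against NaHS). Pgbd5, derived from a transposase, was 4.86, 4.25 and 4.92 against 6.74, 7.39 and 7.02 (0.43 against NaHS). Ugt2b37, a glucuronosyltransferase, was 4.72, 4.94 and 5.28 against 7.41, 6.69 and 6.71 (1.96, adjusted p = 0.0307; -0.06 against NaHS). Gpr63, a receptor coupled to G proteins, was 5.01, 5.93 and 6.01 against 7.18, 7.67 and 7.79 (1.90; 0.53 against NaHS). No overlap with CS+LPS was a condition for naming these 4 genes. The adjusted p was over 0.05 under 7 of 24 alternatives for Spmap2 and 15 of 24 for Ugt2b37.

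The falls outside the matrix and mast cell lists held several regulators. Npas2, the partner of BMAL1 in the circadian clock, was 8.18, 9.36 and 9.31 in CS+LPS and 7.19, 7.56 and 6.48 with PPG (-1.87, SE 0.43, adjusted p = 0.118), and lay 2.06 log2 units below NaHS. A dimmer probe of Npas2 moved the other way (0.73, SE 0.28, adjusted p = 0.386). Of 15 clock genes no other was called, where 0.268% of all tested probes were called lower. In this list 10 of the 15 lay above 0, and the median was 0.12. Bmal1 itself differed by -1.07 without overlap between the groups. It was 1 of 3 members that lay lower without overlap, where 8.41% of all tested probes did so. Hes1, a Notch target that represses transcription, was 10.07, 9.53 and 9.87 against 8.66, 8.53 and 8.06 (-1.41, SE 0.44, adjusted p = 0.259; -0.82 against NaHS). Id3, which blocks basic helix-loop-helix factors, was 8.47, 8.65 and 8.65 against 7.52, 7.70 and 7.82, a fall of less than 2-fold with little spread (-0.91, SE 0.15, adjusted p = 0.0260). It differed from NaHS by -0.08. P2rx1, an ATP-gated channel, was 8.14, 7.87 and 7.89 against 7.02, 7.27 and 7.06 (-0.85, adjusted p = 0.0383; -0.68 against NaHS). The adjusted p was over 0.05 under 12 of 24 alternatives for Id3 and 18 of 24 for P2rx1.

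Of the other named falls, Rgs4, which shortens G protein signals, was 10.45, 10.62 and 10.84 in CS+LPS and 9.11, 8.86 and 9.13 with PPG (-1.61, SE 0.51, adjusted p = 0.270). Spon2, a matrix protein that binds LPS, was 10.24, 10.86 and 11.08 against 8.82, 9.73 and 8.07 (-1.85, adjusted p = 0.255). Plpp4, a lipid phosphatase, was 11.07, 9.62 and 10.90 against 8.93, 9.26 and 9.10 (-1.44, adjusted p = 0.285). These 3 lay 1.23, 1.94 and 1.45 log2 units below NaHS. Pdia5, a disulfide isomerase of the endoplasmic reticulum, was 11.46, 11.50 and 11.73 against 8.40, 10.38 and 10.78 (-1.71; -1.19 against NaHS), with the lowest value in CS+LPS+PPG replicate 1, and without it the difference was -0.98. Nell1 (-1.25; -0.86 against NaHS), a secreted factor of bone, also fell below 2-fold without that sample (-0.92). Klra4 (-1.17), a lectin-like receptor of natural killer cells, and LOC501222 (-1.39) were called lower than CS+LPS, but differed from NaHS by 0.49 and 0.01. The LOC501222 call was lost when any 1 of 7 arrays was left out.

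**Figure D5:**
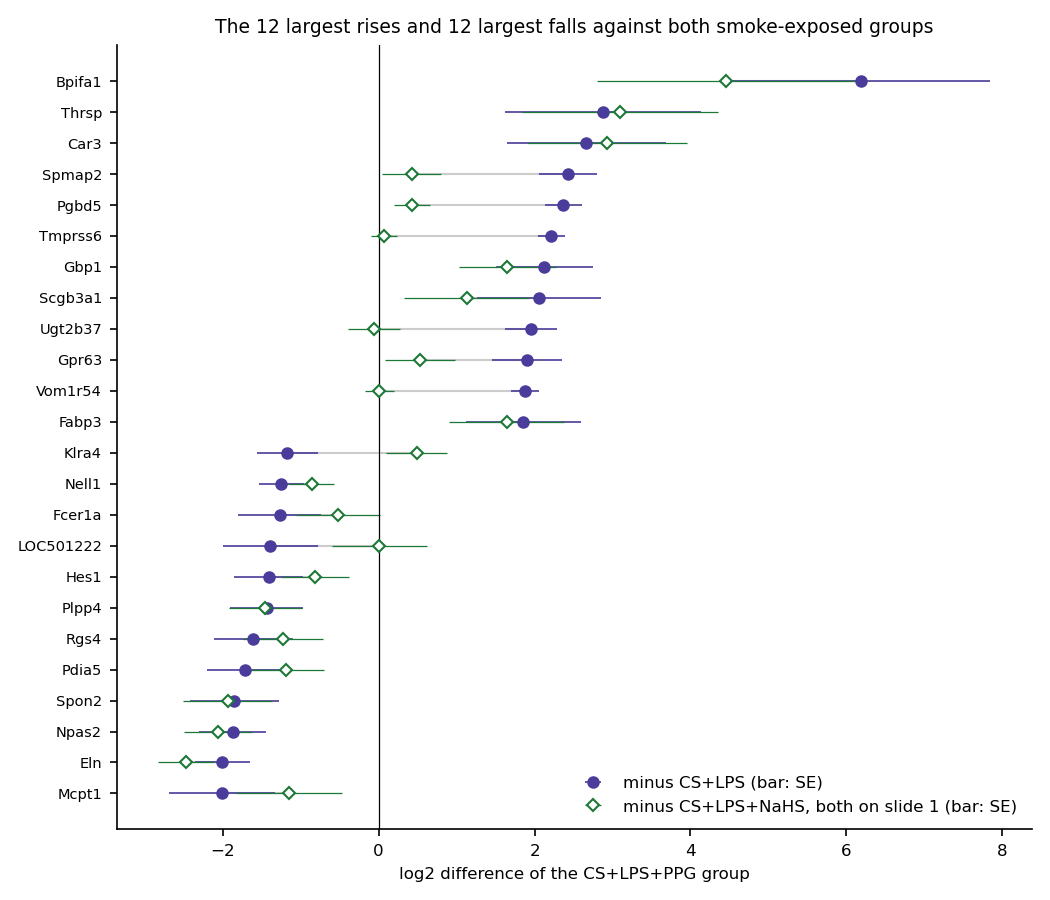
Log2 difference of the CS+LPS+PPG group (x axis) from CS+LPS (filled circles) and from CS+LPS+NaHS on the same slide (open diamonds) for the 12 largest rises and 12 largest falls (y axis). The genes had 1 symbol, a DE call, no overlap between groups and signal well above background on the 6 arrays compared, and bars are SE from limma. Diamonds of Tmprss6, Ugt2b37, Vom1r54 and LOC501222 sit near 0, while those of Eln, Npas2, Spon2 and Bpifa1 stay far from it.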

How the data were processed

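Lung RNA was labelled with Cy3 and hybridised to single-colour Agilent whole rat genome arrays, 1 array a sample. Per the file headers, the deposited intensity of each spot (62976 an array) was background-subtracted with Agilent Feature Extraction (10.7 per the labels). The tables of the authors hold log2 signals, normalized by them in GeneSpring and restricted to the probes they called, with fold changes (ratios) and p-values of their own comparisons; these tables served only for probe names and positions, and their 60 columns of array values were not used. Control replicates 1 and 2 and CS+LPS+NaHS replicate 1 were deposited with fewer digits than the other arrays.

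Outlier spots were left out, intensities were put on the log2 scale, spots of 1 probe were averaged and each array was set to its 75th percentile over all probes for transcripts. A probe counted as well above background on an array where at least 0.5 of its spots were marked so. Symbols came from RefSeq for 17514 probes and from the tables of the authors for 194, and 12659 had none. Differences were fitted with limma 3.58.1 (R 4.3.3) on all 12 arrays with no covariate, p-values were adjusted by Benjamini-Hochberg over all probes tested, and adjusted p in the text are these. A list gene was read by its most intense probe. At least N-fold marks a bound, set for probes not well above background on any array of a group from the dimmest signals that were. The genes named were the 12 largest rises and 12 largest falls among called probes with 1 symbol, detection on all 6 arrays and no overlap, up to 8 probes with a symbol and the lowest adjusted p under 0.05 in each direction (only 3 were lower), Cth, and list members that were called or stood first in their list; other list members were added as values after they were seen. Comparisons, members and lists were chosen with earlier results of these data known. The labels number the arrays as replicates, and the study describes them as individual rats. The number of arrays limits the precision, and an exact permutation test of 3 against 3 cannot go below 0.1. The values of 1 gene are not reported here. The method was tested on simulated data. Alternatives covered scaling, background correction, filters, outlier spots, slide, replicate number, the test and each array left out.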

Additional observations from a re-analysis of the deposited data

Results flagged for a closer look

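For 3 of the 63 probes examined, every CS+LPS+NaHS sample moved one way from the CS+LPS mean and every CS+LPS+PPG sample the opposite way. Most of the 63 were already called against CS+LPS, so the side of the PPG samples was largely set by that choice. The share of all tested probes with this pattern was not counted, and the NaHS and CS+LPS arrays lay on different slides. Eln differed by -2.47 between CS+LPS+PPG and CS+LPS+NaHS, Lox by -1.65 and RT1-N1 by -1.30, all on the log2 scale. The groups compared share the CS+LPS samples as their reference, and the adjusted p of the direct comparison in limma was 0.563 for each of the 3. RT1-N1 has near-identical neighbours, so which gene its probe reads is uncertain.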

How the results depend on the processing

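The main analysis called 435 probes DE and 111 by adjusted p. With quantile normalization these were 337 (74.5% higher, against 86.9%) and 49, with normexp background correction (on median spot signals) 122 (100 higher, 22 lower) and 49, and with slide as a block 4120 (72.3% higher) and 4793. The filter on all 6 arrays gave 253 DE calls, on at least 1 array 719, and no filter 852 with 68 adjusted. Genes in place of probes gave 235 DE calls, and the methods' t-test, run here on the same values, gave 309 and 1. With the replicate block the counts were 433 and 60. After the group mean of each probe was subtracted, same-numbered CS+LPS+PPG and CS+LPS samples correlated at -0.04, 0.06 and -0.22. The numbers therefore did not pair the samples, and in these deviations not every sample correlated best with its own number. Leaving out control replicate 3 and CS+LPS replicate 1 together, chosen after the data were seen, gave 586 and 171. Without single arrays the counts ran from 384 (CS+LPS replicate 3) to 526 (CS+LPS replicate 2), and from 47 (CS+LPS+PPG replicate 3) to 283 (control replicate 3). The adjusted count was also 53 without CS+LPS+PPG replicate 1, 55 without its replicate 2, 60, 170 and 67 without CS+LPS replicates 1, 2 and 3, and 71 without CS+LPS+NaHS replicate 2. The cause of these shifts was not tested, apart from the smaller or larger number of probes under the filters. RT1-CE3 turned to -0.090 and Ncr1 to -0.55 with slide as a block. Cth was -1.82 with slide as a block, past the threshold of a fall. With 1 array left out the Cth difference ran from -0.53 (without CS+LPS replicate 3) to 0.11 (without CS+LPS replicate 1), was 0.07 without CS+LPS+PPG replicate 1, and 0.11 with control replicate 3 also left out. Eln stayed between -2.43 and -1.72 under the 24 alternatives that gave a value, with an adjusted p from 0.00911 to 0.39 that was over 0.05 under 13. The median of the interferon list stayed between 0.35 and 0.89 that of the elastic fibre list between -0.85 and -0.25, and that of the mast cell list between -1.46 and -0.18. Of 63 single results, 60 kept their side of the call with quantile normalization, 45 with normexp, 43 with the t-test and 34 with slide as a block.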
